A study of Mus musculus with 4 samples.

Results

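The comparison described here set the wild type urogenital sinus (UGS) at E18.5 against the wild type UGS at E16.5, gene by gene. Genes entered it if they had at least 1 FPKM in either wild type library, which 14807 of the 25819 rows of the expression table did. FPKM scales the reads assigned to a gene by the length of its transcript and by the number of mapped reads, so levels can be compared between genes of different length. The series holds 4 RNA-Seq libraries, 1 for each genotype at each stage. Both wild type libraries came from littermates of the mutants, typed by PCR, and the other 2 came from Tbx18Gfp/Gfp embryos, homozygous for a null allele of the T-box transcription factor gene *Tbx18* in which GFP is knocked in. The wild type pair is the developmental series against which those mutants are read, and the same 2 stages in the libraries labelled Tbx18Gfp/Gfp, called the mutants here, are given beside it. Whole UGS of 3 males gave the pooled RNA of each library, which averages epithelium, mesenchyme, muscle, vessels and nerves, so fewer cells of a type and less RNA per cell cannot be told apart. With 1 pooled library a side there was no replicate error and no test. A gene is written here as having risen or fallen if its deposited FPKM differed at least 2-fold between the stages, and a list of genes is described by its counts and its median log2 ratio of E18.5 over E16.5 to be read beside those of all genes: 2.7% risen, 16.8% fallen and a median of -0.35 as deposited.

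The UGS is the embryonic tube below the bladder from which the prostate, the urethra and the bladder neck arise. Its endoderm-derived epithelium is wrapped by a mesenchyme, and androgen acting on that mesenchyme leads the epithelium to send out the prostatic buds. Between the stages compared here buds form and lengthen, smooth muscle and fibroblasts of the wall mature, and the lining nearer the bladder becomes urothelium, the stretchable epithelium that holds urine.

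The libraries themselves differed before any gene group is considered. The depth estimated from genes with a single read was 64 M (1e6) mapped reads for E16.5 wild type and 29 M for E18.5 wild type, against 55.7 and 52.4 M for the mutants at E16.5 and E18.5. FPKM summed to 460392 in E16.5 wild type and to 375826 in E18.5 wild type, and to 495419 and 504136 in the mutants. Y-linked genes were present in both wild type libraries, with 22.5 and 18.8 FPKM of *Ddx3y* and 27.6 and 36.8 FPKM of *Eif2s3y* at E16.5 and E18.5. *Tbx18* had 3.47 FPKM at E16.5 and 3.16 FPKM at E18.5 in wild type, against 2.5 FPKM and 2.93 FPKM under the mutant label, so its level did not separate the genotypes by 2-fold. Which of its exons the GFP allele leaves in place is not given in the sources used here, so this value does not check the labels. The E18.5 wild type library stood apart from the other 3 in how its values followed base composition. Over the 12914 genes with a known transcript and at least 1 FPKM throughout, the Spearman correlation of the log2 ratio with transcript GC content was -0.50 for E18.5 over E16.5 wild type, and 0.48 and 0.44 for the E16.5 and E18.5 mutants over E18.5 wild type. It was 0.02, -0.19 and -0.23 for the 3 ratios that leave that library out. The Spearman correlation of the wild type log2 ratio with transcript GC content was -0.51 over 13864 genes, against -0.22 for the mutants, and it was -0.47 with the GC content of the coding part alone, -0.45 with that of the 3′ untranslated part and -0.06 with that of the promoter. These are descriptions over genes that share 2 libraries, and their origin was not tested. Ratios are therefore given as deposited, and where it matters after a smooth trend on transcript length and GC content had been subtracted. Values of the mutants are as deposited throughout, also where they stand beside a trend-subtracted wild type value.

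As deposited, 400 genes (2.7%) rose and 2485 genes (16.8%) fell from E16.5 to E18.5. Of the risen genes 195 were protein-coding and 142 had no annotated transcript. For the fallen genes these numbers were 2135 and 189, and for the 14807 genes tested 13256 and 917. Genes with any higher value numbered 4107 and genes with any lower value 10700, and the median log2 ratio was -0.35. Over the 13783 genes that reached 1 FPKM at both stages the median was -0.33, and after centring on it 800 genes (5.42%) were at least 2-fold higher and 1192 (8.07%) at least 2-fold lower. With the length and GC trend subtracted, 691 genes (4.98%) were at least 2-fold higher and 448 (3.23%) at least 2-fold lower. The direction of the excess thus depended on the scaling, from 13.9% of the 2-fold genes higher at E18.5 as deposited to 60.7% with the trend subtracted. Of the 253 risen genes with a trend-subtracted value, 248 were still at least 2-fold higher there, and of the 2275 fallen genes with such a value 443 were still at least 2-fold lower. Between the same stages in the mutants, 198 genes (1.35%) rose and 84 (0.571%) fell.

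**Figure D1:**
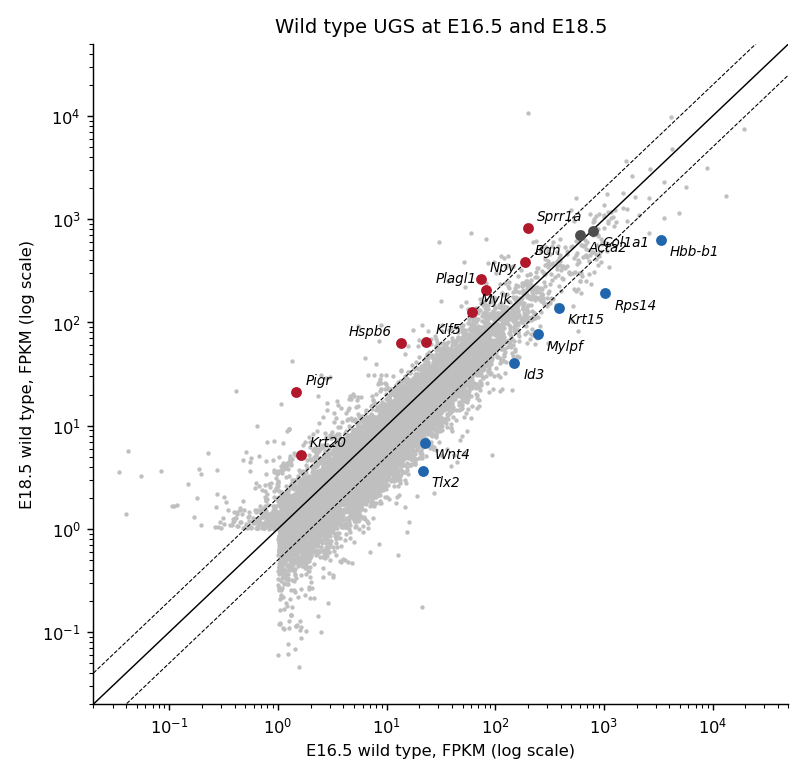
FPKM of each gene tested in E16.5 wild type UGS (x axis, log scale) and E18.5 wild type UGS (y axis, log scale), with the line of equality (solid) and of 2-fold difference (dashed); genes at 0 in a library are not drawn. Named risen genes are red, fallen genes blue and *Acta2* and *Col1a1*, within 2-fold, dark grey, and the cloud lies mostly below the line of equality.

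Counting error was small against these differences for most genes. The 95% counting interval of the log2 ratio, from estimated reads, had a median width of 0.56 for genes whose higher value was 1 to 5 FPKM, 0.26 for 5 to 20 FPKM and 0.15 above 20 FPKM. It lay above 0 for 237 of the 253 risen genes with an interval and below 0 for 2263 of the 2275 fallen ones. Those genes were chosen on the same 2 values, so these counts were nearly fixed in advance and give the calls no support. The interval covers counting error alone, not differences between embryos or library preparations. At the 2-fold limit itself, *9530008L14Rik* with 0.757 and 1.51 FPKM counted as risen and *Ppig* with 23.0 and 46.1 FPKM did not, while *Igtp* with 2.67 and 1.33 FPKM counted as fallen.

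The fallen genes were GC-rich and the risen ones were not. The median transcript GC content was 56.4% among fallen genes and 46.7% among risen genes, for those with an annotated transcript. Of 10 equal groups of genes by GC content, in the lowest the median wild type log2 ratio was 0.05 and 21 of 1387 genes had fallen, whereas in the highest it was -0.99 and 689 of 1387 had fallen. The mutant medians in the same groups were -0.01 and -0.14. To show what such sequences look like, the first 90 coding bases from the start codon are given for the members of lowest and highest coding GC content in each of 4 families with members above 5 FPKM (GENCODE M21 transcripts of GRCm38). Capitals mark G and C.
Wnt2: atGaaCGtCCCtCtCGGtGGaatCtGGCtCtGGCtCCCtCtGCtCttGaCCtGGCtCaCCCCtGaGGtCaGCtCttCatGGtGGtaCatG
Wnt6: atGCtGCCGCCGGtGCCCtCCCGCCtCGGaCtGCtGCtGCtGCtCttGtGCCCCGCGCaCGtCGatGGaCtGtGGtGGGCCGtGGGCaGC
Rpl22l1: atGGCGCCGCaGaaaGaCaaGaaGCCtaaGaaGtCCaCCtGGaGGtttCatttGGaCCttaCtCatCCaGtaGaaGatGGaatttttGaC
Rpl36: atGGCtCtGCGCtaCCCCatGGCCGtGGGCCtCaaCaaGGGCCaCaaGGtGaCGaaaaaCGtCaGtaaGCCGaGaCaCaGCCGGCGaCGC
Col12a1: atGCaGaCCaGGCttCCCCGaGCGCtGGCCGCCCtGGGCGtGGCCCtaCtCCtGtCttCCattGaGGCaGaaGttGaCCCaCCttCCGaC
Col23a1: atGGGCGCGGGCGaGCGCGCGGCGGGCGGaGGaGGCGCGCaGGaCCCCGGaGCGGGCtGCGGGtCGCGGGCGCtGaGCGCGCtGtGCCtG
Aspn: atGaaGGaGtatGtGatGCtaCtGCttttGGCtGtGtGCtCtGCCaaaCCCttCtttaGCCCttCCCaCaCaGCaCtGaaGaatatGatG
Prelp: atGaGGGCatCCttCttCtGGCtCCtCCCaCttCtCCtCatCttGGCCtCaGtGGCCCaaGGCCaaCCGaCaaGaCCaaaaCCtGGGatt
The coding part of the Wnt ligand gene *Wnt2* held 55.3% G and C, and *Wnt2* had a log2 ratio of -0.79, against 65.9% and -1.83 for *Wnt6*. Among the collagens, *Col12a1* held 49.0% with a log2 ratio of -0.28 and *Col23a1* 66.1% with -0.70. The order of the extreme pair was the other way round in the remaining 2 families. The ribosomal protein gene *Rpl22l1* held 39.9% with a log2 ratio of -0.88 and *Rpl36* 61.6% with -0.61, and the matrix proteoglycan gene *Aspn* held 38.4% with 0.92 and *Prelp* 56.5% with 1.19. Over all tested members the Spearman correlation of the wild type log2 ratio with transcript GC content was -0.29 for the 12 Wnt ligands, -0.51 for the 38 collagens, -0.15 for the 82 ribosomal protein genes and 0.09 for the 12 small proteoglycans.

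**Figure D2:**
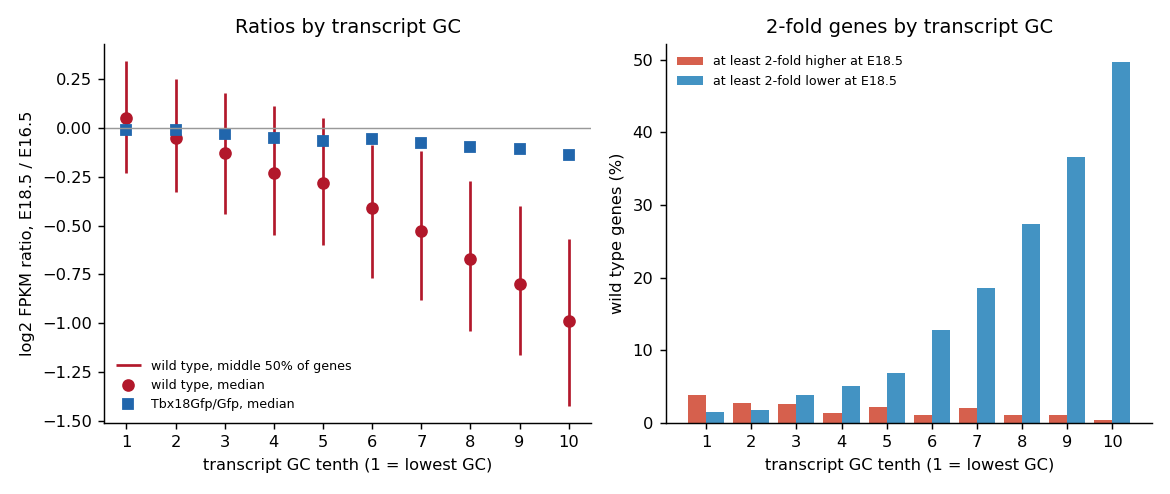
Left, the median log2 ratio of E18.5 over E16.5 (y axis) in 10 equal groups of the genes tested by transcript GC content (x axis) for wild type (circles, with lines over the middle 50% of genes) and Tbx18Gfp/Gfp (squares). Right, the share of wild type genes in each group at least 2-fold higher or lower at E18.5 (y axis, %), in which the fallen share goes from 1.51% to 49.7%.

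The single genes that moved farthest were mostly short or poorly annotated loci. Where the higher library reached 10 FPKM and the lower one 1 FPKM, the 10 largest rises were *Mir719*, *LOC100503677*, *LOC100503459*, *LOC100504131*, *LOC100503341*, *Pigr*, *LOC100503618*, *Gm10163*, *Gm14303* and *Gm4604*. The 10 largest falls were *Gm6969*, *LOC100503076*, *H3f3c*, *Gm9104*, *Gm12657*, *Gm6594*, *LOC100504405*, *Gm6421*, *Gm6404* and *Mir703*. *Mir719* went from 200.3 to 10812 FPKM, a log2 ratio of 5.75, and *Mir703* from 13216 to 1692 FPKM, a log2 ratio of -2.97. Many such loci share sequence with other genes, and the counting could have split their reads, so their values are uncertain. Reads were estimated from the transcript length less an offset of 214 bases, and the transcript of *Gm14303* had 171 bases. Its effective length was therefore set to 1 base. Its estimate of 1 and 3 reads and its counting interval from -0.91 to 8.44 follow from that setting and are not reliable. *Pigr* was the one protein-coding gene with a named function among the rises. It encodes the receptor that carries polymeric immunoglobulins across epithelia, and it went from 1.48 to 21.2 FPKM in wild type, a log2 ratio of 3.84 with a counting interval from 3.68 to 4.01, and from 1.89 to 1.30 FPKM in the mutants.

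A ranking kept to protein-coding genes with transcripts of at least 1000 bases, chosen after the values above had been seen, gave more familiar names. Of 6397 such genes 53 had risen and 842 had fallen. After *Pigr*, the largest rise was in *Hspb6*, a small heat shock protein of muscle, from 13.6 to 63.1 FPKM, a log2 ratio of 2.21, with 11 and 31.1 FPKM in the mutants. *Srgn*, the proteoglycan of blood cell granules, went from 4.92 to 20.2 FPKM, and *Cpa3*, a mast cell carboxypeptidase, from 5.40 to 15.6 FPKM. *Ctse*, an intracellular aspartic protease of epithelia, went from 4.24 to 13.3 FPKM and the kinase gene *Map3k12* from 19.4 to 59.4 FPKM. The remaining rises in the first 10 were *2310001H12Rik*, *1110032A04Rik*, *Gm13212* and *1110032A03Rik*. The largest falls were *2310043J07Rik* (log2 ratio -2.76) and *Tlx2*, a homeobox gene of autonomic neurons, from 21.5 to 3.64 FPKM. *Bok*, a pro-apoptotic member of the Bcl2 family, went from 14.9 to 2.80 FPKM, and *Tuba1c*, an alpha-tubulin, from 68.2 to 14.9 FPKM. *Alas2*, which begins haem synthesis in red cells, went from 59.2 to 12 FPKM, and *Tst*, *Fam171a2*, *Fbxl6*, *Fam108a* and *Abhd8* completed the list. The transcripts of the 10 falls held 53.3% to 69.9% G and C and those of the 10 rises 35.7% to 55.4%.

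The regulators of the UGS mesenchyme, transcription factors and R-spondins, all reached 1 FPKM in a wild type library, and 5 of 38 fell with none risen. Their median log2 ratio was -0.28 as deposited, 0.05 centred and 0.16 with the trend subtracted, against -0.35 for all genes as deposited. The fallen share was 13.2%, against 16.8% of all genes, and with the trend subtracted 3 of the list were at least 2-fold higher and 1 lower. *Tcf21*, a mesenchymal bHLH factor and the most abundant of them, had 136 FPKM at E16.5 and 93.1 FPKM at E18.5. *Tbx18* itself was low and had a log2 ratio of -0.13. The genes that fell included the forkhead factors *Foxf2*, from 21.1 to 6.05 FPKM, *Foxf1a*, from 17 to 7.02 FPKM, and *Foxl1*, from 4.53 to 1.17 FPKM, which act downstream of hedgehog signals in gut and urogenital mesenchyme. *Hoxa11* fell from 13.4 to 5.53 FPKM and *Hoxb13*, a Hox gene of the prostate, from 2.90 to 0.940 FPKM. The posterior Hox genes did not move together. *Hoxd13* had 44.3 and 67.4 FPKM, a log2 ratio of 0.61, *Hoxd12* 11.8 and 11.9 FPKM, *Hoxd11* 13.9 and 9.25 FPKM and *Hoxa13* 19.1 and 15.8 FPKM. *Rspo1*, a Wnt-enhancing secreted factor, had the largest positive ratio, 0.96, from 2.04 to 3.97 FPKM. In the mutants *Hoxd13* had 44.8 and 36.8 FPKM and *Foxf2* 10.2 and 9.41 FPKM.

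Among the regulators of the epithelium, 3 of 31 rose and 4 fell, and the median log2 ratio was -0.08 as deposited, against -0.37 in the mutants. With the trend subtracted it was 0.27 in wild type, where 7 were at least 2-fold higher and 1 lower. The risen genes included *Klf5* and *Pparg*. *Klf5*, a zinc finger factor of prostate basal cells and urothelium, went from 23.1 to 65.2 FPKM, a log2 ratio of 1.49 with a counting interval from 1.44 to 1.55, while the mutants had 18.1 and 14.3 FPKM. *Pparg*, a nuclear receptor active in urothelium and fat, went from 3.71 to 7.64 FPKM in wild type and from 3.24 to 6.10 FPKM in the mutants. Other factors of bud and urogenital epithelium were higher at E18.5 by less than 2-fold. *Foxa1*, a forkhead factor of endoderm, had 19.4 and 30.0 FPKM, *Sox9*, a factor of growing bud tips, 11.3 and 16.7 FPKM, and *Trp63*, the p53-related factor of basal cells, 10.7 and 15.5 FPKM. In the mutants these genes had 14.4 and 15.3, 11.8 and 8.26, and 7.93 and 8.39 FPKM. The 4 fallen genes were *Sox4*, from 74.6 to 34.3 FPKM, and *Hoxb13*, *Pax9* and *Ovol2*, all with under 3 FPKM at both stages. *Id2*, an inhibitor of bHLH factors and the most abundant of the list, had 112 and 122 FPKM.

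Of 19 urothelial genes 1 rose and 1 fell, 10 were higher at E18.5 and 9 were lower. The median log2 ratio was 0.03 as deposited, 0.37 centred and 0.49 with the trend subtracted, against 0.56 in the mutants. With the trend subtracted 5 were at least 2-fold higher and none lower. *Krt20*, the keratin of the superficial umbrella cells, rose from 1.63 to 5.24 FPKM in wild type and from 0.638 to 6.21 FPKM in the mutants. The uroplakins, membrane proteins that form the plaques of the umbrella cell surface, were all higher at E18.5, none by 2-fold. *Upk2* had 45.4 and 72.1 FPKM, a log2 ratio of 0.67, *Upk1b* 98.6 and 138 FPKM, *Upk1a* 83.6 and 108 FPKM and *Upk3a* 55.4 and 56.8 FPKM. *Psca*, a surface protein of urothelium and prostate and the most abundant of the list, had 162 and 282 FPKM. *Cldn4*, a claudin of tight junctions, was the fallen gene, from 38.2 to 18.8 FPKM. *Aqp3*, a water and glycerol channel, was the next lowest with a log2 ratio of -0.94. In the mutants *Upk3a* went from 46.0 to 110 FPKM and *Upk1a* from 56.7 to 125 FPKM, larger ratios than in wild type, and *Psca* had 124 and 163 FPKM.

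As deposited 14 of 17 keratins were lower at E18.5, as were 10700 of the 14807 genes tested, and with the trend subtracted 9 of 17 were above 0. Of the 12 cornified-envelope genes tested, 5 were higher and 7 lower as deposited. Of 17 keratins tested, 4 fell and 1, *Krt20*, rose, and their median log2 ratio was -0.61 as deposited, -0.28 centred and 0.18 with the trend subtracted. Fallen genes made up 23.5%, against 16.8% of all genes, and after subtraction of the trend 1 was at least 2-fold higher and none lower. *Krt15*, the most abundant, fell from 384 to 139 FPKM, *Krt4* from 191 to 93.1 FPKM, *Krt14* from 24.9 to 9.91 FPKM and *Krt13* from 6.58 to 2.35 FPKM. *Krt5*, the partner of *Krt14* in basal cells, had 104 and 59.8 FPKM, and the luminal pair *Krt8* and *Krt18* had 90.2 and 59.0 and 79.0 and 82.0 FPKM. In the mutants *Krt15* had 258 and 201 FPKM and *Krt14* 19.1 and 15.2 FPKM. Of 12 cornified-envelope genes, 3 rose and 3 fell (25% fallen, median -0.38 as deposited, -0.05 centred, 0.34 with the trend subtracted, where 4 were at least 2-fold higher and 2 lower). *Sprr1a*, a small proline-rich envelope protein, went from 199 to 822 FPKM in wild type, a log2 ratio of 2.04 with a counting interval from 2.0 to 2.08, and from 141 to 268 FPKM in the mutants. *Ivl*, which encodes involucrin, went from 9.63 to 25.9 FPKM in wild type and from 8.82 to 17.5 FPKM in the mutants. *Krtdap* rose in both genotypes, from 2.78 to 5.70 and from 0.965 to 4.42 FPKM. *Sprr3*, *Cnfn* and *Tgm1* fell from at most 2.93 FPKM. Of 43 genes of epithelial junctions and adhesion 10 fell and none rose (23.3% fallen, median -0.57 as deposited, -0.24 centred, 0.01 with the trend subtracted, where none were at least 2-fold higher and none lower). *Cdh1*, E-cadherin, had 35.5 and 36.8 FPKM and *Epcam* 59.3 and 48.3 FPKM, while *Cldn7* fell from 25.8 to 8.97 FPKM.

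Smooth muscle genes were split in wild type, 16 of 28 higher and 12 lower at E18.5, and had smaller ratios than in the mutants. Of the 28 contractile genes, all tested, 1 rose and none fell, and the median log2 ratio was 0.12 as deposited, 0.45 centred and 0.54 with the trend subtracted. With the trend subtracted 4 were at least 2-fold higher and none lower. *Mylk*, myosin light chain kinase, was the risen gene, from 61.2 to 128 FPKM in wild type, a log2 ratio of 1.06, and from 46.2 to 140 FPKM in the mutants. *Acta2*, smooth muscle actin and the most abundant of the list at E18.5, had 597 and 698 FPKM in wild type, with 381 and 1526 FPKM in the mutants. *Myh11*, the smooth muscle myosin heavy chain, had 86.4 and 149 FPKM in wild type, with 31.3 and 264 FPKM in the mutants. *Actg2* had 200 and 237 FPKM in wild type, with 51.6 and 1064 FPKM in the mutants, and *Cnn1*, calponin, 53.8 and 53.3 against 21.1 and 178 FPKM. The lowest ratios were those of *Ppp1r14a* (-0.90), an inhibitor of myosin phosphatase, *Pdlim7* (-0.83) and *Flna* (-0.79), which encodes filamin A. The mutant median log2 ratio was 1.37, with 17 of 28 genes risen. The wild type log2 ratio was below the mutant one for 28 of 28 genes. Over all genes tested the median was -0.35 in wild type and -0.06 in the mutants. How many of all genes had the lower ratio in wild type was not counted. The mutants had lower values than wild type for 28 of the 28 genes at E16.5 and higher ones for 26 of 28 at E18.5. The share of all genes lower or higher in the mutants at each stage was not counted either, so these counts cannot be set against it. The FPKM of the list summed to 3450 and 3672 in wild type and to 2478 and 7653 in the mutants. That of all genes summed to 460392 and 375826 in wild type and to 495419 and 504136 in the mutants.

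**Figure D3:**
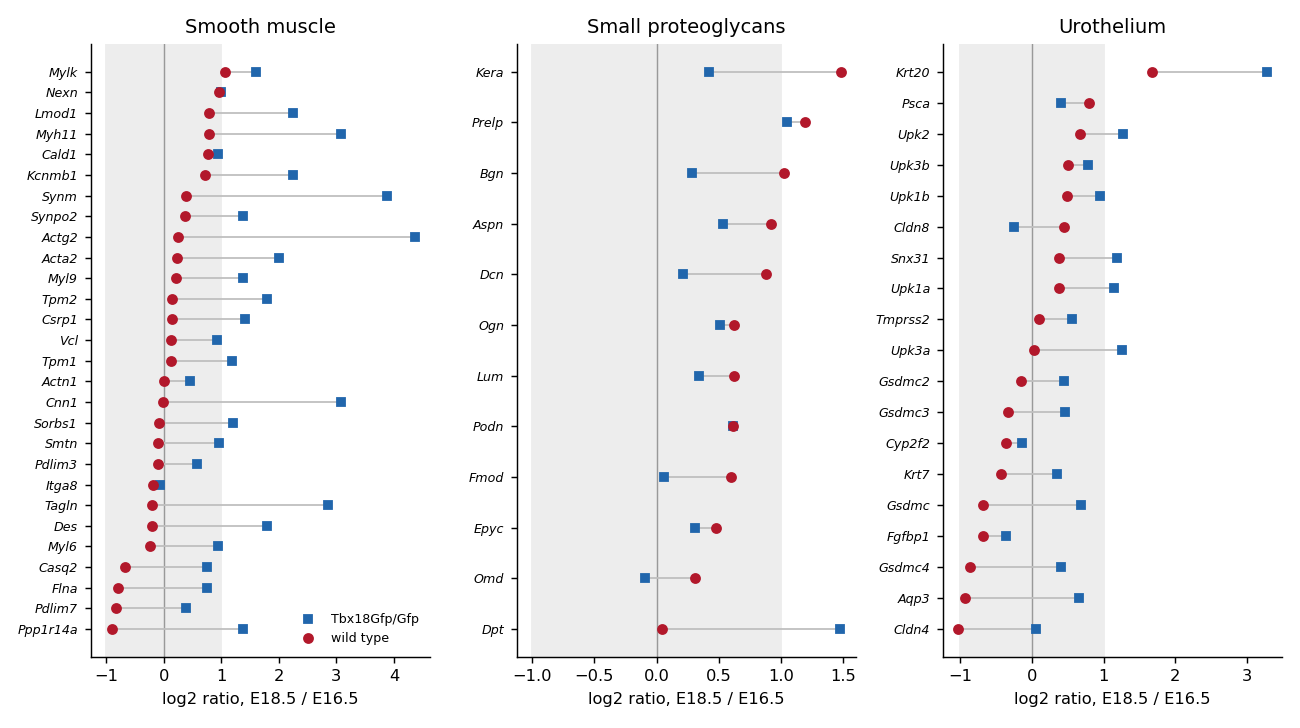
Log2 ratio of E18.5 over E16.5 (x axis) for each gene of 3 lists in wild type (circles) and Tbx18Gfp/Gfp (squares), joined by a line, with the grey band within 2-fold. The wild type circles lie left of the mutant squares for 28 of 28 smooth muscle genes and at or above 0 for 12 of 12 small proteoglycans. The share of all genes with the lower ratio in wild type was not counted. Over all genes tested the median was -0.35 in wild type and -0.06 in the mutants.

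The factors that drive muscle gene expression were mostly within 2-fold in wild type. Of 11 muscle transcription factor genes none rose and 1 fell, with a median log2 ratio of -0.04 as deposited, 0.29 centred and 0.46 with the trend subtracted. *Myocd*, the coactivator that switches on smooth muscle genes, had 7.94 and 11 FPKM, and its partner *Srf* 17.7 and 13.7 FPKM. *Fhl1*, the most abundant, had 58.1 and 75.8 FPKM in wild type, with 40.2 and 111 FPKM in the mutants. *Fhl2*, another LIM protein, fell from 14.2 to 6.41 FPKM in wild type and had 10.1 and 17.6 FPKM in the mutants. Of 25 channels and receptors of bladder muscle 1 rose and 1 fell, with a median of -0.10 as deposited and 0.23 centred. *Edn1*, the vasoconstrictor endothelin, rose from 2.72 to 5.62 FPKM. *P2rx1*, the ATP receptor of bladder smooth muscle, had 3.66 and 3.32 FPKM in wild type, with 0.959 and 26.6 FPKM in the mutants.

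Skeletal muscle genes went the other way. Of 37 tested, 11 fell and none rose, and the median log2 ratio was -0.64 as deposited, -0.31 centred and -0.26 with the trend subtracted, against -0.06 in the mutants. That is 29.7% fallen, against 16.8% of all genes, with 1 at least 2-fold higher and 4 lower once the trend was subtracted. *Mylpf*, a fast-muscle myosin light chain and the most abundant at E16.5, fell from 246 to 76.6 FPKM in wild type and had 114 and 115 FPKM in the mutants. *Acta1*, skeletal actin, fell from 231 to 110 FPKM in wild type and rose from 81.8 to 455 FPKM in the mutants. *Tnni1*, the slow troponin I, fell from 48.6 to 14.6 FPKM. Embryonic myosin *Myh3* had 102 and 66.4 FPKM and perinatal *Myh8* 41.1 and 22.3 FPKM, both lower by less than 2-fold, and *Tnnt2*, cardiac troponin T, was higher at 61.0 and 91.2 FPKM. The FPKM of all 43 genes in the table summed to 1582 at E16.5 and 1015 at E18.5. Of the 13 myogenic regulators 5 fell, among them *Myod1* from 11.4 to 3.34 FPKM and *Myog* from 36.4 to 17.5 FPKM, the bHLH factors that start skeletal muscle differentiation. Their median was -0.72 as deposited, -0.39 centred and -0.30 with the trend subtracted. The fallen share was 38.5%, against 16.8% of all genes, and with the trend subtracted none of the list were at least 2-fold higher and 1 lower. The UGS was taken whole, and the part of striated muscle taken along around the urethra was not tested.

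The small leucine-rich proteoglycans, collagen-binding proteins of the extracellular matrix, moved in 1 direction. All 12 tested were higher at E18.5 and 3 rose, with a median log2 ratio of 0.62 as deposited, 0.95 centred and 0.91 with the trend subtracted, against 0.38 in the mutants, where 11 of 12 were higher. Of all genes tested 35.2% were higher at E18.5 in the mutants. With the trend subtracted 6 were at least 2-fold higher and none lower. *Dcn*, decorin, the most abundant, had 527 and 967 FPKM, a log2 ratio of 0.88. *Bgn*, biglycan, rose from 189 to 383 FPKM in wild type, a log2 ratio of 1.02, and had 224 and 271 FPKM in the mutants. *Kera*, keratocan, rose from 2.2 to 6.11 FPKM and *Prelp* from 2.26 to 5.14 FPKM, and *Prelp* rose in the mutants too, from 2.17 to 4.50 FPKM. *Lum* had 120 and 185 FPKM, *Ogn* 96.4 and 148 FPKM and *Aspn* 47.9 and 90.5 FPKM. Their transcripts had a median GC content of 42.2%, below that of all genes tested at 50.4%.

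Of 38 collagens tested, 13 fell and none rose, with a median log2 ratio of -0.61 as deposited, -0.28 centred and -0.13 with the trend subtracted, against 0.03 in the mutants. Fallen genes made up 34.2%, against 16.8% of all genes, and after subtraction of the trend 1 was at least 2-fold higher and 2 lower. The fibrillar collagens that make up most of the transcript were nearly level. *Col1a1* had 796 and 777 FPKM, *Col1a2* 664 and 630 FPKM and *Col3a1* 1013 and 826 FPKM. The fallen genes were less abundant types and included *Col16a1*, from 54.5 to 18.3 FPKM, *Col9a2*, from 31.8 to 13.6 FPKM, and *Col8a2*, from 19.1 to 5.79 FPKM. *Col15a1*, of basement membrane zones, was the most positive at 26.1 and 35.1 FPKM. Within the collagens the wild type ratio had a Spearman correlation of -0.51 with transcript GC content over the 38 genes. Of 34 matrix proteases and their inhibitors 8 fell and none rose (23.5% fallen, median -0.45 as deposited, -0.12 centred, 0.02 with the trend subtracted, where 1 was at least 2-fold higher and 2 lower). *Mmp2*, a gelatinase, had 117 and 76.8 FPKM, its activator *Mmp14* 116 and 81.1 FPKM and *Timp3*, an inhibitor, 65.0 and 89.0 FPKM, while *Mmp11* fell from 24.9 to 8.79 FPKM. Of 17 elastic fibre genes 1 fell, *Emilin1*, from 66.1 to 20.3 FPKM, and *Eln*, elastin, had 159 and 149 FPKM. The elastic fibre median was -0.16 as deposited, 0.18 centred and 0.12 with the trend subtracted.

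Of the signalling families, Wnt ligands had the lowest median. Of 19 ligand genes measured, 12 were tested, 9 fell and all 12 were lower, with a median log2 ratio of -1.56 as deposited, -1.23 centred and -0.77 with the trend subtracted, against -0.19 in the mutants. That is 75% fallen, against 16.8% of all genes, with none at least 2-fold higher, 3 lower and 1 above 0 once the trend was subtracted. *Wnt4*, a ligand of the nephric and genital tract mesenchyme, fell from 22.7 to 6.79 FPKM in wild type and had 19.4 and 16.6 FPKM in the mutants. *Wnt7b* and *Wnt6*, epithelial ligands, fell from 8.49 to 2.70 FPKM and from 7.39 to 2.08 FPKM, and *Wnt11* fell from 5.09 to 1.18 FPKM. *Wnt5a*, the most abundant ligand and one of the mesenchyme, did not fall, with 31.1 and 28.5 FPKM. The transcripts of the 12 ligands had a median GC content of 56.5%. Receptors, transducers and secreted inhibitors of the pathway had 6 of 44 genes fallen and none risen, with a median of -0.31 as deposited, 0.03 centred and 0.07 with the trend subtracted. The fallen share was 13.6%, against 16.8% of all genes, and with the trend subtracted 2 of the list were at least 2-fold higher and none lower. *Ctnnb1*, beta-catenin, had 266 and 162 FPKM, *Sfrp2*, a secreted inhibitor, 218 and 210 FPKM, and *Axin2*, a target of the pathway, 10.3 and 8.45 FPKM. *Ror2*, a receptor of Wnt5a, fell from 12.9 to 5.95 FPKM.

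Hedgehog signalling passes from epithelial Shh to receptors in the mesenchyme. *Shh* had 20.2 and 18.4 FPKM, the receptor *Ptch1* 23.2 and 20 FPKM and the transducer *Smo* 41.8 and 38.9 FPKM, all within 2-fold. *Gli1*, the transcriptional target most used as a readout of the pathway, fell from 26.4 to 12.4 FPKM, a log2 ratio of -1.09 that was -0.26 with the trend subtracted. The mutants had 30.3 and 25 FPKM of *Gli1*. Of the 15 genes tested 4 fell and none rose (26.7% fallen, against 16.8% of all genes, median -0.21 as deposited, 0.12 centred, 0.00 with the trend subtracted, where 1 was at least 2-fold higher and none lower).

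Among BMP and TGF-beta ligands, receptors and modulators, 1 of 44 rose and 5 fell, with a median of -0.30 as deposited, 0.03 centred and 0.15 with the trend subtracted. Fallen genes made up 11.4%, against 16.8% of all genes, and after subtraction of the trend 1 was at least 2-fold higher and 2 lower. The ligands *Bmp4*, which restrains bud number in the prostate, and *Bmp7* had 36.6 and 27.7 FPKM and 12.1 and 11.8 FPKM. *Bmp5* was the risen gene, from 2.70 to 5.42 FPKM in wild type, and had 3.09 and 5.28 FPKM in the mutants. *Id3*, an inhibitor of bHLH factors that BMP signals switch on, fell from 149 to 40.5 FPKM, a log2 ratio of -1.88, while its relatives *Id1* and *Id2* had 89.1 and 52.8 FPKM and 112 and 122 FPKM. *Nog*, which encodes the BMP antagonist noggin, fell from 8.54 to 4.23 FPKM and *Chrd*, chordin, from 9.30 to 3.76 FPKM. *Fstl1*, a secreted modulator and the most abundant, had 271 and 187 FPKM.

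FGF genes had 2 of 23 fallen and none risen (median -0.47 as deposited, -0.13 centred, 0.04 with the trend subtracted). *Fgf10*, the mesenchymal ligand required for prostatic budding, had 6.58 and 6.83 FPKM in wild type, with 7.70 and 6.42 FPKM in the mutants. *Fgf7*, its relative with the same epithelial receptor, had 3.29 and 5.99 FPKM, and that receptor, *Fgfr2*, 37.2 and 30.9 FPKM. The fallen genes were *Fgfr3*, from 11 to 3.58 FPKM, and *Etv4*, a transcriptional target of FGF signals, from 8.08 to 3.54 FPKM. In the Notch pathway 7 of 24 fell and none rose (29.2% fallen, against 16.8% of all genes, median -0.52 as deposited, -0.19 centred, 0.03 with the trend subtracted, where 1 was at least 2-fold higher and none lower). *Notch3* fell from 19.3 to 9.60 FPKM and the ligand gene *Jag2* from 9.76 to 4.26 FPKM, while *Notch1* had 11.1 and 7.72 FPKM and *Dlk1*, an atypical ligand and the most abundant, 106 and 122 FPKM. In the retinoic acid pathway 3 of 19 fell (15.8% fallen, median -0.51 as deposited, -0.18 centred, -0.03 with the trend subtracted, where 1 was at least 2-fold higher and 1 lower), *Rxrb* from 17 to 5.35 FPKM, *Rxrg* from 3.64 to 1.15 FPKM and *Cyp26a1* from 2.65 to 0.615 FPKM. *Aldh1a2*, which makes retinoic acid, had 80.5 and 71.4 FPKM. Of 61 semaphorin, ephrin, netrin and Slit guidance genes 13 fell and none rose (21.3% fallen, median -0.51 as deposited, -0.18 centred, -0.06 with the trend subtracted, where none were at least 2-fold higher and 2 lower). *Ephb3* fell from 14.2 to 4.73 FPKM and *Ntn1* from 9.27 to 3.05 FPKM, and *Sema5a* had 37.4 and 55.7 FPKM.

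Genes of the androgen and steroid pathway were mostly within 2-fold, with 1 of 18 risen and 1 fallen. The median was -0.08 as deposited, 0.25 centred and 0.05 with the trend subtracted. *Srd5a2*, the enzyme that makes dihydrotestosterone in the UGS, had 13.6 and 8.77 FPKM in wild type, with 14.3 and 10.6 FPKM in the mutants, and *Srd5a1* had 10.6 and 12.5 FPKM in wild type. *Fkbp4*, a co-chaperone of steroid receptors, fell from 93.8 to 45.9 FPKM and *Fkbp5*, an androgen-induced relative, had 24.5 and 12.7 FPKM. Secretory products of the adult prostate and seminal vesicle were absent or nearly so. Of 21 such genes measured, 16 were under 1 FPKM in both wild type libraries, and the defining products *Pbsn*, *Spink3*, *Sbp* and *Svs4* were listed at 0 in both. The 5 tested had a median of 0.16 as deposited, 0.49 centred and 0.39 with the trend subtracted, against -0.15 in the mutants, and *Tgm4*, the transglutaminase of the coagulating gland, had 1.97 and 1.01 FPKM.

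Growth and imprinted genes were among the lists above the overall median. Of 25 imprinted genes 2 rose and 1 fell (median 0.09 as deposited, 0.42 centred, 0.39 with the trend subtracted, where 5 were at least 2-fold higher and none lower). *Plagl1*, a zinc finger factor of the imprinted network, rose from 82.3 to 206 FPKM in wild type, a log2 ratio of 1.32, and had 61.7 and 79.8 FPKM in the mutants. *Phlda2* rose from 0.777 to 1.91 FPKM. *Igf2*, the fetal growth factor, had 336 and 553 FPKM, *H19* 802 and 940 FPKM, *Gnas* 1153 and 1169 FPKM and *Cdkn1c* 288 and 360 FPKM. In the IGF system 3 of 17 fell (17.6% fallen, against 16.8% of all genes, median -0.15 as deposited, 0.18 centred, 0.02 with the trend subtracted, where 3 were at least 2-fold higher and none lower). *Igfbp2* fell from 240 to 82.4 FPKM, while *Igf1* had 60.3 and 96.7 FPKM and *Igfbp7* 99.9 and 171 FPKM.

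Of 57 genes of DNA replication and division 10 fell and none rose, with a median of -0.36 as deposited, -0.03 centred and -0.06 with the trend subtracted. That is 17.5% fallen, against 16.8% of all genes, with none at least 2-fold higher and none lower once the trend was subtracted. *Ccnd3*, a D-type cyclin, fell from 97.1 to 30.6 FPKM, *Mcm2*, of the replicative helicase, from 26.8 to 12.4 FPKM, and *Cdc20* from 27.3 to 11.2 FPKM. *Mki67*, the proliferation marker, went the other way at 40.8 and 62.1 FPKM, and *Top2a* and *Ccnb1* had 55.9 and 52.6 FPKM and 29.8 and 25.8 FPKM. In the mutants the 3 fallen genes just named had 104 and 90.4, 28.3 and 22.9, and 29.9 and 24.2 FPKM. Of 15 inhibitors of the cycle 1 fell, *Cdkn2d*, from 8.63 to 2.31 FPKM, and *Cdkn1b* had 19.5 and 31.1 FPKM (median -0.21 as deposited, 0.12 centred, 0.28 with the trend subtracted). Of 41 replication-dependent histone genes 7 rose and 10 fell (24.4% fallen, median -0.44 as deposited, -0.11 centred, 0.33 with the trend subtracted, where 12 were at least 2-fold higher and 1 lower). *Hist1h2bc* rose from 8.69 to 21.5 FPKM and *Hist1h2an* fell from 17.4 to 5.56 FPKM. Histone genes share sequence, and their transcripts largely lack the poly(A) tails that the library kit selects, so these values are uncertain.

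**Figure D4:**
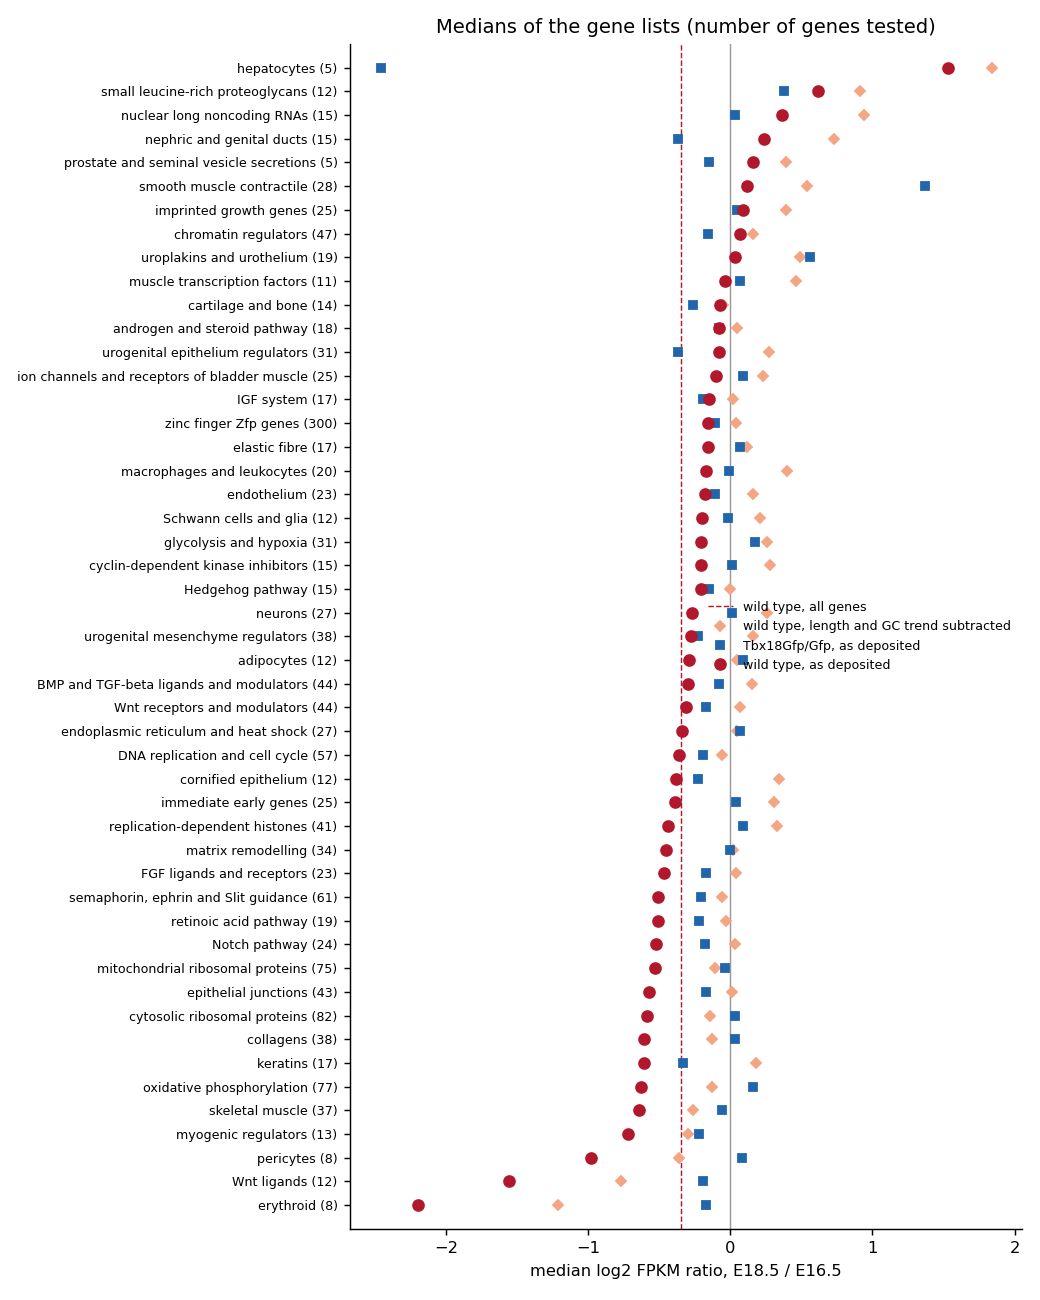
Median log2 ratio of E18.5 over E16.5 (x axis) for each gene list with at least 5 genes tested (y axis, number of genes in parentheses): wild type as deposited (circles), wild type with the length and GC trend subtracted (diamonds) and Tbx18Gfp/Gfp as deposited (squares); the dashed line is the wild type median of all genes. As deposited the Wnt ligands (-1.56) and erythroid genes (-2.2) lie lowest, and most diamonds lie nearer 0 than the circles.

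Ribosomal and mitochondrial genes, which are made in fixed proportions and usually move together, were scattered in wild type. Of 82 cytosolic ribosomal protein genes 18 fell and 1 rose, with a median log2 ratio of -0.59 as deposited, -0.26 centred and -0.14 with the trend subtracted. The fallen share was 22%, against 16.8% of all genes, and with the trend subtracted 5 of the list were at least 2-fold higher and 5 lower. *Rps14* fell from 1029 to 192 FPKM, a log2 ratio of -2.42 with a counting interval from -2.48 to -2.37, and *Rps26* rose from 1582 to 3672 FPKM, a log2 ratio of 1.22. In the mutants *Rps14* had log2 ratio -0.06 and *Rps26* 0.13. The standard deviation of the log2 ratios over the 82 genes was 0.67 in wild type, still 0.67 with the trend subtracted, and 0.14 in the mutants. Processed copies of many ribosomal protein genes could have shared their reads, and whether that moved with the library was not tested.

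The same held for the respiratory chain. Of 77 oxidative phosphorylation genes 20 fell and 2 rose (26% fallen, against 16.8% of all genes, median -0.63 as deposited, -0.29 centred, -0.13 with the trend subtracted, where 4 were at least 2-fold higher and 5 lower). In the mutants 74 of 77 were higher at E18.5, with a median of 0.16, against 35.2% of all genes tested higher there. *Cyc1*, cytochrome c1 of complex III, fell from 60.5 to 15.4 FPKM, and *Uqcrb*, a subunit of the same complex, rose from 147 to 355 FPKM. *Ndufa12* of complex I rose from 74.2 to 155 FPKM, and *Atp5g2* of the ATP synthase fell from 147 to 46.9 FPKM. The standard deviation was 0.66 in wild type and 0.20 in the mutants. Of 75 mitochondrial ribosomal protein genes 15 fell and none rose (20% fallen, median -0.53 as deposited, -0.20 centred, -0.11 with the trend subtracted, where 1 was at least 2-fold higher and 5 lower), with standard deviations of 0.73 and 0.11. Over the 4616 genes with at least 10 FPKM in all 4 libraries and transcripts of at least 1000 bases, the standard deviation was 0.50 in wild type, 0.46 with the trend subtracted and 0.23 in the mutants, and 0.14 for E16.5 mutant over E16.5 wild type. Each of the 3 ratios with the E18.5 wild type library had a standard deviation of 0.50 to 0.52, and its origin was not tested.

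**Figure D5:**
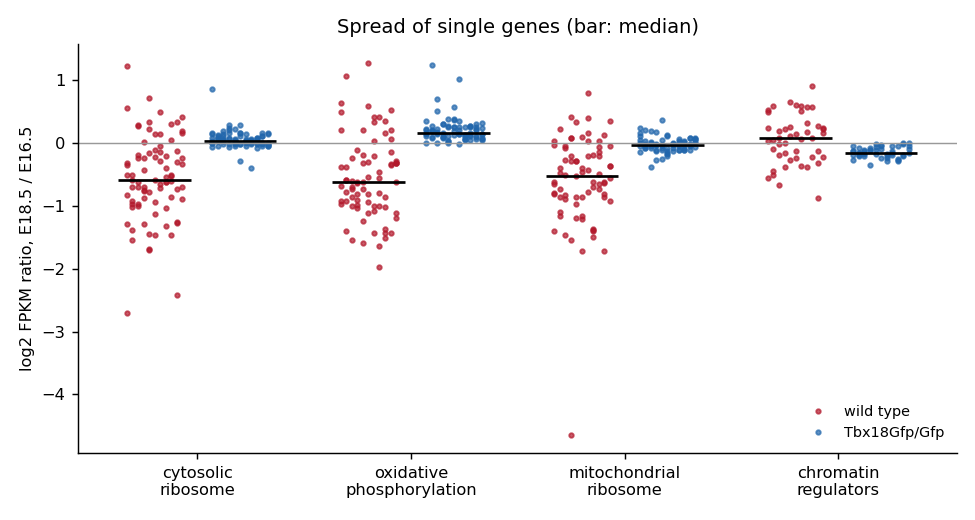
Log2 ratio of E18.5 over E16.5 (y axis) for each gene of 4 lists (x axis) in wild type (red) and Tbx18Gfp/Gfp (blue), with a bar at each median. The wild type points of the ribosomal and respiratory lists spread with standard deviations of 0.66 to 0.73, the mutant points with 0.11 to 0.20.

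Lists of nuclear and chromatin genes had medians above the -0.35 of all genes as deposited. None of 47 chromatin regulators rose or fell, 27 were higher at E18.5, and the median was 0.07 as deposited, 0.40 centred and 0.16 with the trend subtracted, against -0.16 in the mutants, where none was higher. Of all genes tested 35.2% were higher at E18.5 in the mutants. *Smarca2*, a remodelling ATPase, had 62.4 and 94.8 FPKM, and *Dnmt3a*, a DNA methyltransferase, 30.9 and 16.7 FPKM. Of 300 Zfp zinc finger genes 3 rose and 27 fell (9% fallen, against 16.8% of all genes, median -0.16 as deposited, 0.17 centred, 0.04 with the trend subtracted, where 9 were at least 2-fold higher and 6 lower). *Zfp414* had 18.9 and 36.5 FPKM and *Zfp219* fell from 23.1 to 7.49 FPKM. Of 15 long noncoding and small nuclear RNA genes 2 rose, with a median of 0.36 as deposited, 0.69 centred and 0.94 with the trend subtracted. With the trend subtracted 4 were at least 2-fold higher and none lower. *Rn7sk*, the 7SK RNA that restrains transcription elongation, rose from 81.6 to 637 FPKM, and *Kcnq1ot1* from 1.85 to 4.70 FPKM. *Malat1* had 178 and 228 FPKM. *Rn7sk* is not polyadenylated, so its level in a library selected for poly(A) is uncertain.

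Of 25 immediate early genes 6 fell (24% fallen, against 16.8% of all genes, median -0.39 as deposited, -0.06 centred, 0.31 with the trend subtracted, where 1 was at least 2-fold higher and none lower), *Jund* from 57.5 to 24.0 FPKM and *Fos* from 4.41 to 2.13 FPKM, while *Jun* had 28.3 and 30.7 FPKM and *Egr1* 10.3 and 8.53 FPKM. Of 31 glycolysis and hypoxia genes 3 fell (9.68% fallen, median -0.21 as deposited, 0.12 centred, 0.26 with the trend subtracted, where 2 were at least 2-fold higher and none lower). *Gapdh* had 848 and 1066 FPKM, *Ldha* 238 and 176 FPKM and *Eno3*, the muscle enolase, fell from 23.7 to 8.46 FPKM. Of 27 chaperone and endoplasmic reticulum genes 2 fell (median -0.34 as deposited, -0.01 centred, 0.05 with the trend subtracted), *Pdia6* from 116 to 55.3 FPKM and *Dnajb1* from 19 to 7.36 FPKM.

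Markers of the other cells in the tissue differed most for blood. All 8 erythroid genes tested were lower at E18.5 and 7 fell, with a median of -2.2 as deposited, -1.87 centred and -1.21 with the trend subtracted. Fallen genes made up 87.5%, against 16.8% of all genes, and after subtraction of the trend none of the 6 with a value were at least 2-fold higher and 3 were lower. *Hba-a1*, adult alpha-globin, fell from 8812 to 3159 FPKM and *Hbb-b1* from 3348 to 632 FPKM, and the summed FPKM of the 13 erythroid genes in the table was 17931 and 5861 in wild type and 28874 and 28496 in the mutants. The erythroid regulator *Klf1* was under 1 FPKM in both wild type libraries, and *Gata1*, *Hbb-bh1* and *Hbb-y* were listed at 0 at E18.5. The part of blood content in other results was not tested. The 2 alpha-globin genes share sequence and were counted apart with uncertainty. Of 23 endothelial genes 6 fell and none rose (26.1% fallen, median -0.18 as deposited, 0.15 centred, 0.16 with the trend subtracted, where 3 were at least 2-fold higher and 1 lower). *Pecam1* and *Cdh5*, the defining endothelial adhesion molecules, had 25.1 and 30.6 FPKM and 26.3 and 28.4 FPKM, while *Cldn5* fell from 8.57 to 2.84 FPKM. Of 8 pericyte genes 4 fell (50% fallen, median -0.98 as deposited, -0.65 centred, -0.36 with the trend subtracted, where none were at least 2-fold higher and none lower), among them *Mcam* from 38.6 to 18.4 FPKM, and *Pdgfrb* had 21.6 and 14.7 FPKM.

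Leukocyte genes split, with 3 of 20 risen and 1 fallen (median -0.17 as deposited, 0.16 centred, 0.40 with the trend subtracted, where 4 were at least 2-fold higher and 1 lower). The risen genes were *Cpa3*, *Fcer1g*, from 5.14 to 11.5 FPKM, and *Cd68*, from 4.65 to 9.54 FPKM, and the macrophage receptor *Csf1r* had 6.04 and 3.68 FPKM. Of 27 neuronal genes tested 1 rose and 4 fell (14.8% fallen, against 16.8% of all genes, median -0.27 as deposited, 0.06 centred, 0.26 with the trend subtracted, where 4 were at least 2-fold higher and none lower). *Npy*, a neuropeptide of sympathetic neurons, rose from 74.0 to 261 FPKM in wild type, a log2 ratio of 1.82, and had 90.8 and 78.1 FPKM in the mutants. *Tubb3*, neuronal tubulin, fell from 124 to 52.2 FPKM, *Prph*, peripherin, from 134 to 59.4 FPKM and *Uchl1* from 150 to 65.9 FPKM, while *Stmn2* had 132 and 115 FPKM and *Th*, which begins catecholamine synthesis, 21.7 and 15.2 FPKM. Of 12 glial genes 2 fell (median -0.20 as deposited, 0.13 centred, 0.21 with the trend subtracted) and *Sox10*, the glial regulator, had 7.89 and 7.16 FPKM.

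Of 12 adipocyte genes 3 rose and 2 fell (median -0.29 as deposited, 0.04 centred, 0.05 with the trend subtracted, where 4 were at least 2-fold higher and none lower). *Fabp4*, a fatty acid carrier of fat cells and some endothelium, rose in both genotypes, from 32.3 to 94.7 FPKM in wild type and from 20.3 to 98.4 FPKM in the mutants, and *Car3* rose in both from 2.14 to 5.96 and from 1.87 to 6.95 FPKM. The defining fat cell genes *Adipoq*, *Plin1* and *Lep* were under 1 FPKM in both wild type libraries. Of 15 genes of the nephric and genital ducts 1 rose and 3 fell (20% fallen, against 16.8% of all genes, median 0.24 as deposited, 0.57 centred, 0.73 with the trend subtracted, where 6 were at least 2-fold higher and 1 lower, against -0.37 in the mutants). The risen gene was *Crisp1*, an epididymal secreted protein, from 1.03 to 4.96 FPKM, and *Emx2* had 5.99 and 11.2 FPKM.

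Liver, testis, kidney and gut, tissues that should not be in the sample, gave little. Of 14 hepatocyte genes 5 were tested and 3 rose (median 1.53 as deposited, 1.86 centred, 1.84 with the trend subtracted, where 4 were at least 2-fold higher and none lower), with *Alb*, albumin, at 1.01 and 2.92 FPKM in wild type, with 7.13 and 0.626 FPKM in the mutants. The summed FPKM of the 14 genes was 15.3 and 23.6 in wild type. Of 14 testis genes 4, of 12 kidney genes 2 and of 16 gut epithelium rows (15 symbols) 4 reached 1 FPKM, with medians of -0.59, 0.92 and 0.31 as deposited and 0.04, 1.27 and 0.94 with the trend subtracted. The gut rows tested include *Krt20*, counted above with the urothelial genes, so their median does not measure gut alone. The intestinal regulators *Cdx1* and *Cdx2* were listed at 0 in both wild type libraries. Of 23 cartilage and bone genes 14 reached 1 FPKM, and their summed FPKM was 91.7 and 75.6 in wild type. The list also holds *Sox9*, described above with the epithelial factors. Of the 14 tested 1 rose and 4 fell (28.6% fallen, against 16.8% of all genes, median -0.07 as deposited, 0.26 centred, -0.05 with the trend subtracted, where 1 was at least 2-fold higher and 1 lower). The risen gene was *Ibsp*, a bone sialoprotein, and the fallen ones were *Col11a2*, *Col9a3*, *Col9a2* and *Col2a1*, also counted among the collagens.

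Few of the wild type changes recurred at 2-fold between the same stages in the mutants, which share no library with the wild type pair. Of the 395 risen genes with a mutant ratio 234 were higher at E18.5 in the mutants and 36 rose there, with a mutant median of 0.08, where 35.2% of all genes tested were higher and 1.16% rose. Of the 2469 fallen genes with a mutant ratio 1812 were lower and 13 fell, with a mutant median of -0.11, where 64.8% of all genes were lower and 0.399% fell. The protein-coding genes with at least 5 FPKM in wild type that rose in both were *1110032A04Rik*, *2200001I15Rik*, *Car3*, *Ccl27a*, *Fabp4*, *Hspb6*, *Krt20*, *Krtdap*, *Mylk*, *Optc*, *Pcp4*, *Prelp* and *Vsig2*, 13 in all. *Pcp4*, a calmodulin-binding protein, went from 19.9 to 67.6 FPKM in wild type and from 12.1 to 29.4 FPKM in the mutants. *Ccl27a*, a chemokine of squamous epithelium, went from 5.87 to 18.9 FPKM and from 3.79 to 9.69 FPKM. The 13 that fell in both were *A530016L24Rik*, *Gm3134*, *Gm6404*, *Has2as*, *Ipw*, *Lgals7*, *LOC100503076*, *LOC100503799*, *Pnliprp1*, *Slc4a1*, *Snora65*, *Tac1* and *Tspo2*.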

How the data were processed

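RNA-Seq was performed on whole UGS from 3 pooled male embryos per library, 1 KAPA stranded mRNA library for each genotype and stage. Per the submitters' processing notes and methods, reads were called with CASAVA 1.8.2, trimmed with Trimmomatic 0.30, aligned with TopHat2 2.1.0 and quantified with Cufflinks 2.2.1. The deposited values are FPKM, made by the authors as 1 column per library, with no further scaling between libraries stated. The genome build and annotation are not given in the sources used here, and whether strand was used in counting was not stated.

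Genes that reached 1 FPKM in a wild type library were compared as log2(E18.5/E16.5), without a pseudocount. Genes at 0 in 1 library (34, 27 of them at E18.5) have no ratio and were counted at 2-fold by direction. Mapped reads were estimated from olfactory receptor genes at the value of 1 read, 15 to 27 of them a library. From them, reads per gene and exact binomial (Clopper-Pearson) 95% intervals of the ratio were derived, which cover counting error only. Of the genes tested, 72 had 3 estimated reads or fewer in a wild type library. Transcripts shorter than the length offset of 214 bases were given an effective length of 1 base, so their read estimates and intervals are not reliable. Of the genes tested 42 had a transcript under 200 bases, and how many of them are among the 72 was not counted. Transcript length and GC content came from 1 GENCODE M21 transcript per symbol (coding first, then principal, then longest) for 93.8% of the genes tested. A lowess trend (span 0.3) on log2 length and then GC content was subtracted as an alternative. Over all genes tested the lowest trend-subtracted value was -120.24, so the fit failed for at least 1 gene. That value counts among the 448 at least 2-fold lower, and how many genes were affected was not counted. Centring, equal sums, the 75th percentile, other FPKM filters and pseudocounts of 0.1 and 1 were also tried. The table held 55 rows with repeated symbols.

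No test was made, since each group is 1 library. Named genes were the 10 largest rises and falls that reached 10 FPKM in the higher library and 1 FPKM in the lower, and in each list the most abundant members, the largest changes above 5 FPKM and members of known role. The comparison and the lists were chosen with earlier results of these data known. Steps were tested on simulated data. The tools were matplotlib 3.10.9, statsmodels 0.14.6, pandas 2.3.3, numpy 2.4.6 and scipy 1.17.1 under Python 3.11.15. Some genes are not reported here.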

Additional observations from a re-analysis of the deposited data

Results flagged for a closer look

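For 19 gene lists the median log2 ratio of E18.5 over E16.5 had opposite signs in wild type and in Tbx18Gfp/Gfp, each read from 1 library a stage, and the difference between genotypes was not tested. In 5 of them both medians lay at least 0.1 from 0. The oxidative phosphorylation median over 77 genes was -0.63 in wild type and 0.16 in the mutants, and -0.13 in wild type with the length and GC trend subtracted. The glycolysis and hypoxia median over 31 genes was -0.21 and 0.17, and the wild type value took the sign of the mutants at 0.12 centred and 0.26 with the trend subtracted. The median of the 15 genes of nephric and genital ducts was 0.24 in wild type and -0.37 in the mutants, and the wild type value turned to -0.29 without an FPKM filter and to -0.02 at 5 FPKM or more. For the 5 prostate and seminal vesicle genes tested it was 0.16 and -0.15, and for the 5 hepatocyte genes 1.53 and -2.46. The E18.5 wild type library, with its trend on GC content, enters each wild type value, and its part in these differences was not tested.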

How the results depend on the processing

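As deposited, 400 genes were at least 2-fold higher and 2485 at least 2-fold lower at E18.5, so that 13.9% of them were higher. The counts became 800, 1192 and 40.2% after centring on the median, 737, 1344 and 35.4% with the sums made equal, 741, 1337 and 35.7% with the 75th percentile made equal, and 691, 448 and 60.7% with the length and GC trend subtracted. The first 3 subtract a constant of -0.33, -0.29 and -0.29 from all log2 ratios. Without an FPKM filter they were 1509, 4732 and 24.2%. With at least 5 FPKM in either library 224 were higher and the share was 11.9%, with at least 1 FPKM in both the share was 12.4%, and without genes of 3 estimated reads or fewer or without an annotated length 241 were higher and the share was 9.67%. A pseudocount of 1 gave 264 and 1510. Other settings kept the counts within 1.5 times. Of 52 list medians 41 were below 0 as deposited, 22 after centring, 24 with equal sums and 13 with the trend subtracted. The cause of the trend on GC content was not tested.

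No paired analysis was possible because each group is 1 library and no test was made. No replicate was left out for the same reason. The E18.5 wild type library was the shallowest.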
